A study of Mus musculus with 8 samples.

Results

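The genes described here build and police the endoplasmic reticulum (ER), the compartment in which secreted and membrane proteins are made. They are 38 genes, chosen by name and known function, of 37620 in the gene tables of RNA sequencing from mouse small intestinal epithelium, and each matched 1 row in all 8 libraries. By role they fall into 9 genes of the translocon, 15 of protein folding, 8 of ER-associated degradation and 6 of stress signalling. The study compared 2 cell populations sorted by flow cytometry, with 4 libraries each, called replicates here. The labels do not say whether these came from separate animals. CD24Mid cells carried an intermediate level of CD24, a surface glycoprotein found on crypt cells, and are also called CD24low by the submitters (replicates 1, 3, 5 and 7). CD24Neg cells had no CD24 (replicates 2, 4, 6 and 8). Both populations were sorted to exclude cells carrying CD45, a leukocyte antigen. Cells binding Ulex europaeus agglutinin I, a lectin that binds fucosylated glycans of secretory cells, were excluded too. Goblet, plasma cell and lymphocyte markers were still read, at levels given below. No treatment was applied, and genotype, strain and age are not given in the labels used here.

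As background, new secretory proteins enter the ER through the Sec61 channel, are folded there by chaperones such as BiP (made from Hspa5) and by disulfide isomerases, and are passed back to the cytosol for destruction when folding fails. When unfolded proteins pile up, the sensors IRE1, ATF6 and PERK start the unfolded protein response. IRE1 splices the mRNA of Xbp1, ATF6 releases a transcription factor, and PERK favours translation of Atf4, whose targets include Ddit3 (CHOP). In the gut, goblet, Paneth and plasma cells are known for heavy secretory load, and enterocytes for assembling lipoproteins in the ER.

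Sequencing gave 11340782 to 18928233 reads unique to 1 gene per library. Levels are given in CPM, counts scaled to a common library total with TMM, a method that sets the typical gene to an equal level. All 8 enterocyte markers were higher in CD24Neg, and all 5 crypt base stem cell markers were higher in CD24Mid. Of 5 epithelium markers, 1 was higher in CD24Mid (Krt18, log2 fold change 0.61, adjusted p = 0.037 by edgeR). Krt8 (-0.56, adjusted p = 0.021 by edgeR) and Krt20 (-3.91, adjusted p = 1.7e-07) were higher in CD24Neg. Epcam, an epithelial surface protein (-0.08 ± 0.13 SE, adjusted p = 0.57 by edgeR), and Cdh1 (0.22, adjusted p = 0.14) were not called. All 5 dividing cell markers were higher in CD24Mid (summed 1094 to 1707 against 137 to 306 CPM). Of 6 Paneth markers 1 (Mmp7, log2 fold change 2.15) was higher in CD24Mid and 5 were not called. Of 5 myeloid markers 4 could be tested, and 2 of these were higher in CD24Mid (summed 20.8 to 35 against 12.1 to 25.3 CPM). Other cell types also differed. Of 7 goblet markers 5 were higher in CD24Neg and 0 in CD24Mid, with a summed level of 12170 to 34311 CPM in CD24Neg and 3278 to 5227 CPM in CD24Mid. Of 7 enteroendocrine markers 5 were higher in CD24Mid (summed 271 to 796 against 74.9 to 117 CPM). The 6 plasma cell markers that could be tested, of 7, were higher in CD24Mid (summed 511 to 1124 against 98.1 to 152 CPM). The 5 T and NK lymphocyte markers tested, of 6, were higher in CD24Neg (summed 26.4 to 483 against 3.35 to 11.2 CPM). The 5 fibroblast markers summed to at most 1.14 CPM in any library. Mitochondrially encoded genes took 27.7% to 37% of the counts in CD24Neg and 8.03% to 9.17% in CD24Mid, and TMM factors ran from 0.697 to 0.757 and from 1.34 to 1.42. In such sorted bulk samples, fewer cells of a type and less RNA per cell cannot be told apart.

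The degradation machinery and parts of the stress response were higher in CD24Neg, and the translocon and most chaperones lay close to the typical gene. Among the 38 genes, 2 disulfide isomerases and 1 translocon subunit were higher in CD24Mid. Of the 38 genes, 13 were higher in CD24Neg, 3 were higher in CD24Mid and 22 were not called at an edgeR adjusted p under 0.05. Over all 12840 genes tested, 34.3% were called higher in CD24Neg and 35.5% in CD24Mid. The count toward CD24Neg thus lay at the background share and the count toward CD24Mid below it. The CPM of the groups did not overlap for 14 of the 38 genes, against 64.4% of all genes tested. By role, the counts higher in CD24Mid and in CD24Neg were 1 and 0 of 9 for the translocon, 2 and 2 of 15 for folding, 0 and 8 of 8 for degradation, and 0 and 3 of 6 for stress signalling.

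These counts depend on how the libraries are scaled. Over all genes the median log2 fold change was 0.015 with TMM, 0.237 after upper-quartile scaling and 0.956 on unscaled totals. With upper-quartile scaling, CD24Mid had the higher level for 10 of the 38 members and CD24Neg for 8 (all genes, 43.6% and 27.3%). On unscaled totals 32 were higher in CD24Mid and 2 in CD24Neg (all genes, 69.8% and 12.9%). Scaling moves all genes by about the same amount, so the distance from the typical gene is nearly fixed whatever the scaling. With TMM, the median log2 fold change minus that of all genes was -0.59 for degradation, -0.41 for stress signalling, -0.06 for the translocon and 0.02 for folding. Only 5 genes kept their call under each of the 19 alternatives tried: Ssr1, Pdia4 and Pdia6 toward CD24Mid, and P4hb and Ddit3 toward CD24Neg. Upper-quartile scaling and unscaled totals both moved the typical gene toward CD24Mid. They were thus a harder check for calls toward CD24Neg than for calls toward CD24Mid.

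**Figure D1:**
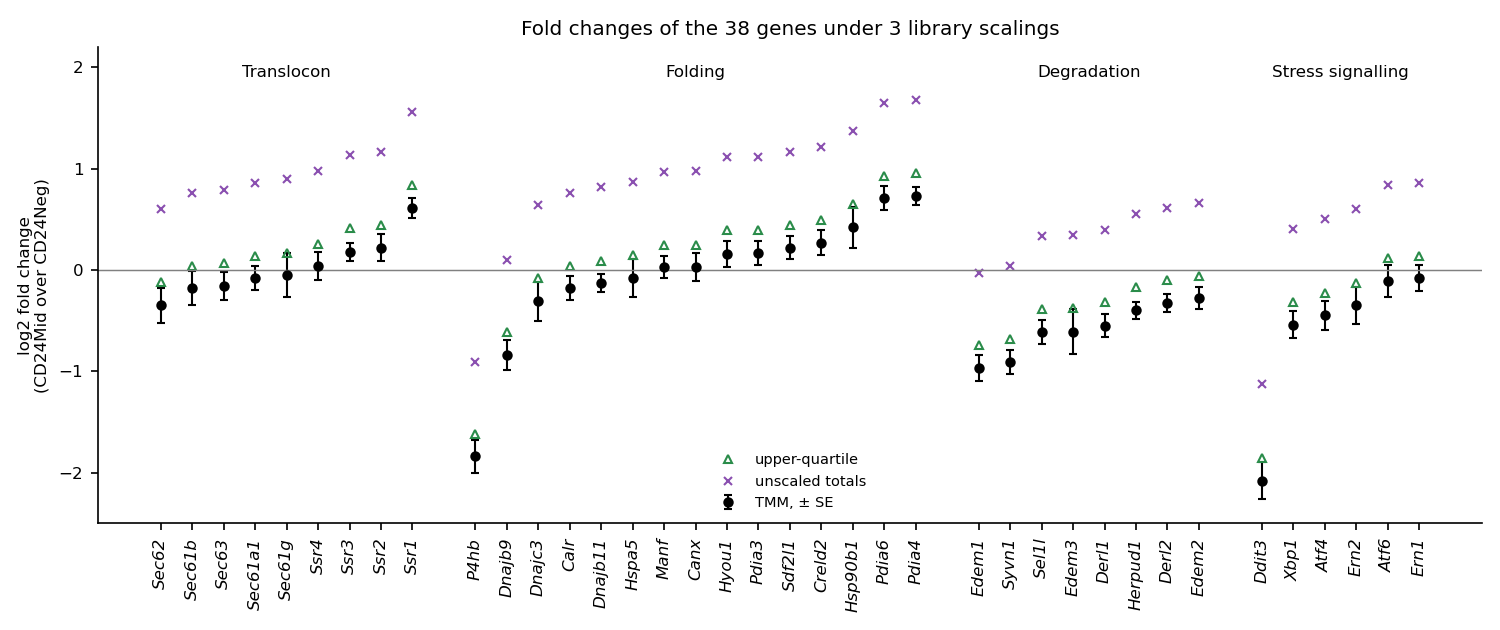
Log2 fold changes (CD24Mid over CD24Neg, vertical axis) of the 38 genes, ordered within each role, with TMM scaling (filled points with SE from 4 against 4 libraries), upper-quartile scaling (triangles) and unscaled totals (crosses). Scaling shifts all genes together, so that Edem1 moves from -0.97 to -0.03 while P4hb (-1.84 to -0.91) and Ddit3 (-2.08 to -1.13) stay below 0 throughout.

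The promoters of these genes can be read for elements through which the unfolded protein response is known to act, and they are shown because the genes that carry one did not move as a block. Hyou1, Manf, Ssr2, Sec61a1, Derl1, Atf6 and Ern2 had no matching window and were not searched. RefSeq promoter windows (build GRCm38.p6, 250 bases before to 50 after the start) matched 31 of the 38 genes. They were searched on both strands for the ER stress response element (ERSE: CCAAT, any 9 bases, CCACG), its second form (ERSE-II: ATTGG, any 1 base, CCACG), a UPR element core (TGACGTGG) and a C/EBP-ATF element core (TTGCATCA). ERSE stood in 8 of the 31 genes (25.8%), against 0.137% of all 27025 genes with a window, and all but 1 of these 8 were folding genes. ERSE-II stood in 2 (6.45%, against 0.0444%), the C/EBP-ATF core in 1 (3.23%, against 1.03%) and the UPR element core in 0 (against 0.714%). ERSE and ERSE-II share the CCACG end, and no member held both. The 38 genes were chosen partly for known roles in this response, so a high share of ERSE and ERSE-II among them is no independent result. A match is a run of letters and not a shown binding site. Hspa5, the best known carrier, has the following 250 bases before its start (chr2:34771840-34772089, + strand), with ERSE in capitals.
Hspa5: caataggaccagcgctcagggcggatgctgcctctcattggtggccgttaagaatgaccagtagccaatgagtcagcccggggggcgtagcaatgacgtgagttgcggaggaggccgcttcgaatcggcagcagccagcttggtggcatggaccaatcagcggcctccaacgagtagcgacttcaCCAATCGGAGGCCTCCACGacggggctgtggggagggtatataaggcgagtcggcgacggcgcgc

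The other carriers are shown around their elements, again in capitals and in the direction of the gene. Syvn1 (chr19:6046512-6046570, + strand) is the only degradation gene with ERSE in its window. Pdia6 (chr12:17266471-17266529, + strand) is the only carrier called toward CD24Mid. Dnajc3 (chr14:118937807-118937865, + strand), Canx (chr11:50325780-50325838, - strand), Calr (chr8:84847055-84847113, - strand) and Creld2 (chr15:88819500-88819558, + strand) were not called, and in Calr and Creld2 the element lies on the opposite strand. Hsp90b1 (chr10:86705513-86705676, - strand) holds it in both directions. Herpud1 (chr8:94386297-94386407, + strand) holds the C/EBP-ATF core followed by ERSE-II, and Dnajb11 (chr16:22857852-22857862, + strand) holds ERSE-II just after its start.
Syvn1: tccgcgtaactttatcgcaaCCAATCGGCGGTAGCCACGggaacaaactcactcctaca
Pdia6: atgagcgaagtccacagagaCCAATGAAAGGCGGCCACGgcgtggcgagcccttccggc
Dnajc3: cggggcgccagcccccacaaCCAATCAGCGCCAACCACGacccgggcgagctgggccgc
Canx: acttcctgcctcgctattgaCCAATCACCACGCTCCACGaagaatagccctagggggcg
Calr: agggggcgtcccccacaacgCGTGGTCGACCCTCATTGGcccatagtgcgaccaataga
Creld2: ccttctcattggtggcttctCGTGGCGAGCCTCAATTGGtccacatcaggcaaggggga
Hsp90b1: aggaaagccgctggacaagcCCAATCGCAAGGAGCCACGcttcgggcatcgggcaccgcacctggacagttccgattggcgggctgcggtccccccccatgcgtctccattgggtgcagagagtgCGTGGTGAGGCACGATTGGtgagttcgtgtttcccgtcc
Herpud1: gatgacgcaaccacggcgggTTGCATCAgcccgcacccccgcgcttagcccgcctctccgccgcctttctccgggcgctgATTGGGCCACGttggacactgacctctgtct
Dnajb11: ATTGGCCCACG
Of the 10 genes with ERSE or ERSE-II, 1 was higher in CD24Mid, 2 (Syvn1 and Herpud1) were higher in CD24Neg and 7 were not called, with a median log2 fold change of -0.10 (range -0.91 to 0.71). Of the 21 genes whose windows hold neither, 2 were higher in CD24Mid, 10 in CD24Neg and 9 were not called, with a median of -0.28 (range -2.08 to 0.73). Over all genes tested, 35.5% were called higher in CD24Mid and 34.3% in CD24Neg. The largest changes of all, in Ddit3 and P4hb, belonged to genes without either element in the window.

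Genes of the translocon, through which new proteins enter the ER, differed little between the groups. Sec61a1, the channel subunit, stood at 352, 286, 288 and 307 CPM in CD24Mid and at 371, 309, 306 and 317 CPM in CD24Neg. The groups overlapped, and the log2 fold change was -0.08 ± 0.12 SE (adjusted p = 0.56 by edgeR). Sec61b, a small subunit beside the channel, overlapped too (50.1 ± 8 against 56.8 ± 12.4 CPM, SD, n = 4 each, adjusted p = 0.35 by edgeR). Sec61g, the other small subunit, read only 4 ± 0.452 and 4.17 ± 0.933 CPM (adjusted p = 0.86 by edgeR). For Sec61g, gene-unique reads were 55.8% of the estimated reads, so that its level is understated and uncertain, while Sec61b had 90.6% and the other members at least 95.2%. Sec62 and Sec63, which assist entry of proteins after their translation, had log2 fold changes of -0.35 ± 0.17 SE and -0.16 ± 0.14 SE and were not called (adjusted p 0.089 and 0.33 by edgeR). Sec62 was called without CD24Neg replicate 2 (-0.42, adjusted p = 0.048 by edgeR).

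The signal sequence receptor, also named TRAP, is a complex beside the channel that helps some signal peptides to insert. Its subunits did not move alike. Ssr1 stood at 212, 220, 220 and 236 CPM in CD24Mid and at 154, 147, 129 and 150 CPM in CD24Neg. All 4 CD24Mid libraries lay above all 4 CD24Neg libraries, a 1.53-fold difference (log2 fold change 0.61 ± 0.10 SE, adjusted p = 0.00022 by edgeR). Ssr3 did not overlap between the groups either (224 to 261 CPM against 208 to 222 CPM) but missed the threshold with 0.18 ± 0.09 SE (adjusted p = 0.11 by edgeR). Ssr2 and Ssr4 overlapped, with log2 fold changes of 0.22 ± 0.13 SE and 0.04 ± 0.14 SE (adjusted p 0.17 and 0.8 by edgeR). Without CD24Neg replicate 2, Ssr2 was called toward CD24Mid (0.35, adjusted p = 0.027 by edgeR). On unscaled totals all 9 translocon genes were called toward CD24Mid, and with upper-quartile scaling 3 were.

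Chaperones of the ER lumen were abundant in both groups and mostly not called. Hspa5, the BiP chaperone that also holds the stress sensors inactive, stood at 548, 401, 662 and 677 CPM in CD24Mid and at 565, 465, 731 and 653 CPM in CD24Neg. The libraries of each group spread over a wider range than the distance between the groups, and the log2 fold change was -0.08 ± 0.19 SE (adjusted p = 0.73 by edgeR). Hsp90b1 (GRP94), its HSP90-type partner, stood at 533, 462, 739 and 760 CPM against 372, 407, 528 and 552 CPM. It overlapped and was not called (0.42 ± 0.20 SE, adjusted p = 0.075 by edgeR), but was called without CD24Mid replicate 3 (0.55, adjusted p = 0.028 by edgeR). Calr and Canx, lectin chaperones that bind sugar-bearing clients, differed by -0.18 ± 0.12 SE and 0.03 ± 0.14 SE (log2, adjusted p 0.18 and 0.85 by edgeR).

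The cofactors of BiP were likewise not called, except for Dnajb9. Dnajb9 (ERdj4), a J-domain protein linked to disposal of misfolded clients, stood at 21.4, 17.3, 27.7 and 22.6 CPM in CD24Mid and at 37.7, 40.6, 45.4 and 35.5 CPM in CD24Neg. Every CD24Neg library was above every CD24Mid library, and Dnajb9 was 1.79-fold higher in CD24Neg (log2 fold change -0.84 ± 0.15 SE, adjusted p = 0.00041 by edgeR), a call that was lost on unscaled totals (0.10, adjusted p = 0.56). The other J-domain proteins, Dnajb11 and Dnajc3, were at -0.13 ± 0.09 SE and -0.31 ± 0.19 SE. Hyou1 and Sdf2l1, further partners of BiP, were at 0.16 ± 0.13 SE and 0.22 ± 0.11 SE, and the small stress-induced proteins Manf and Creld2 at 0.03 ± 0.11 SE and 0.27 ± 0.12 SE. Each of these 6 missed the threshold (edgeR adjusted p between 0.069 and 0.83). Creld2 was called without CD24Neg replicate 6 (0.42, adjusted p = 0.009 by edgeR).

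The disulfide isomerases, which form and reshuffle disulfide bonds, split in opposite directions. P4hb, the founding isomerase and also a subunit of prolyl 4-hydroxylase and of the microsomal triglyceride transfer protein, stood at 1012, 794, 765 and 797 CPM in CD24Mid and at 3005, 3266, 3258 and 2542 CPM in CD24Neg. The lowest CD24Neg library was far above the highest CD24Mid library, and P4hb was 3.58-fold higher in CD24Neg (log2 fold change -1.84 ± 0.16 SE, adjusted p = 2e-06 by edgeR). Pdia4 went the other way, at 166, 157, 165 and 165 CPM in CD24Mid and 105, 90.2, 99.1 and 98.5 CPM in CD24Neg, which is 1.66-fold higher in CD24Mid (0.73 ± 0.09 SE, adjusted p = 2.9e-05 by edgeR). Pdia6, which also tempers signalling by the stress sensors, was 1.63-fold higher in CD24Mid (224, 209, 203 and 228 CPM against 150, 131, 107 and 141 CPM, 0.71 ± 0.12 SE, adjusted p = 0.00032 by edgeR). Pdia3, the isomerase that works with Calr and Canx, was not called (580 ± 40.8 against 517 ± 42.3 CPM, adjusted p = 0.22 by edgeR).

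P4hb alone made up 15.2% to 20.7% of the summed CPM of the 15 folding genes in CD24Mid and 38.6% to 49.7% in CD24Neg. The other 14 folding genes summed to 3452 to 4457 CPM in CD24Mid and to 3301 to 4046 CPM in CD24Neg, so these ranges overlapped. Levels can be compared between genes only per length. Per kilobase of effective length, P4hb came first of the 38 genes in CD24Neg (1340 ± 151 CPM per kilobase) and second in CD24Mid (374 ± 50.7), behind Calr (470 ± 26.2, against 534 ± 37.9 in CD24Neg). Hspa5, Pdia3 and Hsp90b1 followed in CD24Mid at 294 ± 65.6, 278 ± 19.6 and 276 ± 66 CPM per kilobase, and did not differ beyond their spread. At the low end stood Ern2, Atf6 and Sec61g, at 5.96 ± 0.169, 8.01 ± 1.89 and 8.15 ± 0.92 CPM per kilobase in CD24Mid and 7.64 ± 2, 8.64 ± 0.844 and 8.49 ± 1.9 in CD24Neg. The place of Sec61g is uncertain, because its gene-unique reads were only 55.8% of the estimated reads and its level is understated.

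**Figure D2:**
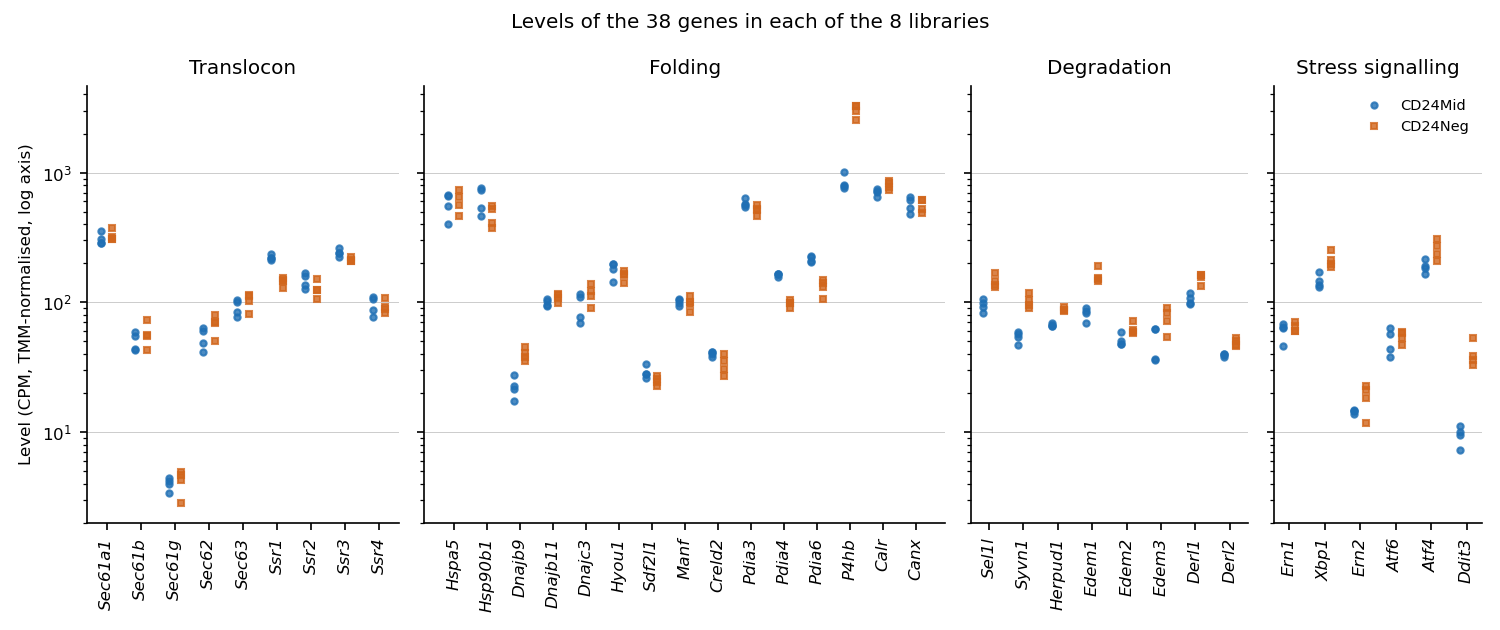
Level of each of the 38 genes (CPM, log axis) in the 4 CD24Mid libraries (circles) and the 4 CD24Neg libraries (squares), 1 point per library, by role. P4hb stands apart among the folding genes, with CD24Neg libraries at 2542 to 3266 CPM and CD24Mid libraries at 765 to 1012 CPM, and the degradation genes show the squares above the circles.

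The 8 genes of ER-associated degradation, which recognises misfolded proteins and returns them to the cytosol for the proteasome, were each called higher in CD24Neg, by 1.22-fold to 1.96-fold. The core of this machinery is the ubiquitin ligase HRD1, made from Syvn1, with its partner Sel1l. Syvn1 stood at 59.4, 46.9, 56.8 and 54.5 CPM in CD24Mid and at 96.1, 89.8, 104 and 118 CPM in CD24Neg, without overlap, and was 1.87-fold higher in CD24Neg (log2 fold change -0.91 ± 0.12 SE, adjusted p = 4.2e-05 by edgeR). Sel1l stood at 92.1, 83.1, 99.4 and 106 CPM against 131, 147, 168 and 136 CPM, again without overlap (1.53-fold, -0.61 ± 0.12 SE, adjusted p = 0.00073 by edgeR). Herpud1, a membrane protein that brings ligase complexes together, had the tightest replicates of the 8 genes in CD24Neg, at 68.8, 65.9, 65.3 and 67.5 CPM in CD24Mid and 86, 86.7, 91.9 and 87.3 CPM in CD24Neg (-0.40 ± 0.08 SE, adjusted p = 0.0014 by edgeR).

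The EDEM proteins trim mannose from glycoproteins that fail to fold and so mark them for removal. Edem1 was the most changed of the degradation genes, at 83.1, 69, 86 and 90.2 CPM in CD24Mid and 147, 153, 192 and 151 CPM in CD24Neg (1.96-fold higher in CD24Neg, -0.97 ± 0.13 SE, adjusted p = 4.3e-05 by edgeR). Edem2 and Edem3 changed less surely and overlapped between the groups. Edem2 was 1.22-fold higher in CD24Neg (51.1 ± 5.17 against 62.3 ± 6.39 CPM, adjusted p = 0.038 by edgeR), and its adjusted p exceeded the threshold without any 1 of 6 libraries (CD24Mid replicates 3, 5 and 7 and CD24Neg replicates 2, 4 and 6, at 0.062 to 0.14). Edem3 was 1.53-fold higher (49 ± 14.9 against 74.8 ± 15.7 CPM, adjusted p = 0.029 by edgeR) and was not called without any 1 of 5 libraries (CD24Mid replicates 1 and 3 and CD24Neg replicates 4, 6 and 8, at 0.077 to 0.15).

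Derl1 and Derl2 form part of the exit channel for degradation substrates. Derl1 stood at 119, 108, 98.3 and 97.5 CPM in CD24Mid and 163, 162, 158 and 134 CPM in CD24Neg (-0.55 ± 0.11 SE, adjusted p = 0.00098 by edgeR), and Derl2 at 39.9, 39.5, 37.6 and 40.2 CPM against 46.4, 50.7, 53.1 and 46.8 CPM (-0.33 ± 0.09 SE, adjusted p = 0.007 by edgeR). Neither overlapped between the groups. With upper-quartile scaling, 4 of the 8 degradation genes stayed called toward CD24Neg (Sel1l, Syvn1, Edem1 and Derl1). On unscaled totals none did by edgeR, 5 were called toward CD24Mid, and Edem1 was the only 1 of the 8 below 0 (-0.03, adjusted p = 0.86). The higher level in CD24Neg is therefore one relative to the typical gene and not to the sequenced total.

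The degradation genes summed to 499 to 566 CPM in CD24Mid and to 795, 834, 916 and 803 CPM in CD24Neg replicates 2, 4, 6 and 8. Goblet markers in the same 4 CD24Neg libraries summed to 27158, 34311, 12170 and 14859 CPM, enterocyte markers to 24200, 36903, 42521 and 25465 CPM, and T and NK lymphocyte markers to 483, 26.4, 73.9 and 344 CPM. Within CD24Neg the degradation sum thus followed the order of the enterocyte markers, while the library with the highest degradation sum, replicate 6, had the lowest goblet sum. The part of these cell types in the degradation result was not tested.

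Among the sensors and transcription factors of the stress response, the 3 factors Ddit3, Xbp1 and Atf4 were higher in CD24Neg, while Ern1, Ern2 and Atf6 were not called. Ddit3 (CHOP), a factor that promotes cell death under lasting stress, stood at 11.2, 7.25, 10.1 and 9.45 CPM in CD24Mid and at 38.4, 33.2, 35.7 and 53.3 CPM in CD24Neg. The groups lay far apart, and Ddit3 was 4.22-fold higher in CD24Neg (log2 fold change -2.08 ± 0.18 SE, adjusted p = 2.4e-06 by edgeR). Xbp1, the factor activated by IRE1, was 1.46-fold higher there (171, 132, 136 and 145 CPM against 254, 197, 211 and 188 CPM, -0.54 ± 0.13 SE, adjusted p = 0.003 by edgeR), again without overlap. Gene counts do not tell its spliced from its unspliced form. Atf4, which is controlled mostly through its translation, stood at 214, 164, 191 and 185 CPM against 310, 208, 235 and 274 CPM. It overlapped between the groups and was called (-0.45 ± 0.14 SE, adjusted p = 0.015 by edgeR), but the adjusted p was 0.065 when CD24Neg replicate 2 was left out and 0.054 when replicate 8 was.

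The sensor genes Ern1, Ern2 and Atf6 overlapped between the groups, unlike that of PERK, which is given with the wider pathway. Ern1, which encodes the broadly expressed IRE1 alpha, had a log2 fold change of -0.08 ± 0.13 SE (60.5 ± 9.55 against 64.1 ± 4.85 CPM, adjusted p = 0.57 by edgeR), and Atf6 one of -0.11 ± 0.16 SE (50.4 ± 11.9 against 54.4 ± 5.31 CPM, adjusted p = 0.56 by edgeR). Ern2 encodes IRE1 beta, the form confined to mucus-producing epithelia. It stood at 13.9, 14.6, 14.9 and 14.5 CPM in CD24Mid and at 22.7, 21.3, 11.8 and 18.4 CPM in CD24Neg, so that CD24Neg replicate 6 fell below all CD24Mid libraries while the other 3 lay above. Ern2 was not called (-0.35 ± 0.18 SE, adjusted p = 0.11 by edgeR), and without CD24Neg replicate 6 it was (-0.47, adjusted p = 0.0057 by edgeR). That replicate also had the lowest summed goblet level of the 4, and the part of goblet cells was not tested. On unscaled totals Xbp1 (0.40), Atf4 (0.50), Ern1, Ern2 and Atf6 turned toward CD24Mid, and Ddit3 (-1.13, adjusted p = 0.00011) remained higher in CD24Neg.

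**Figure D3:**
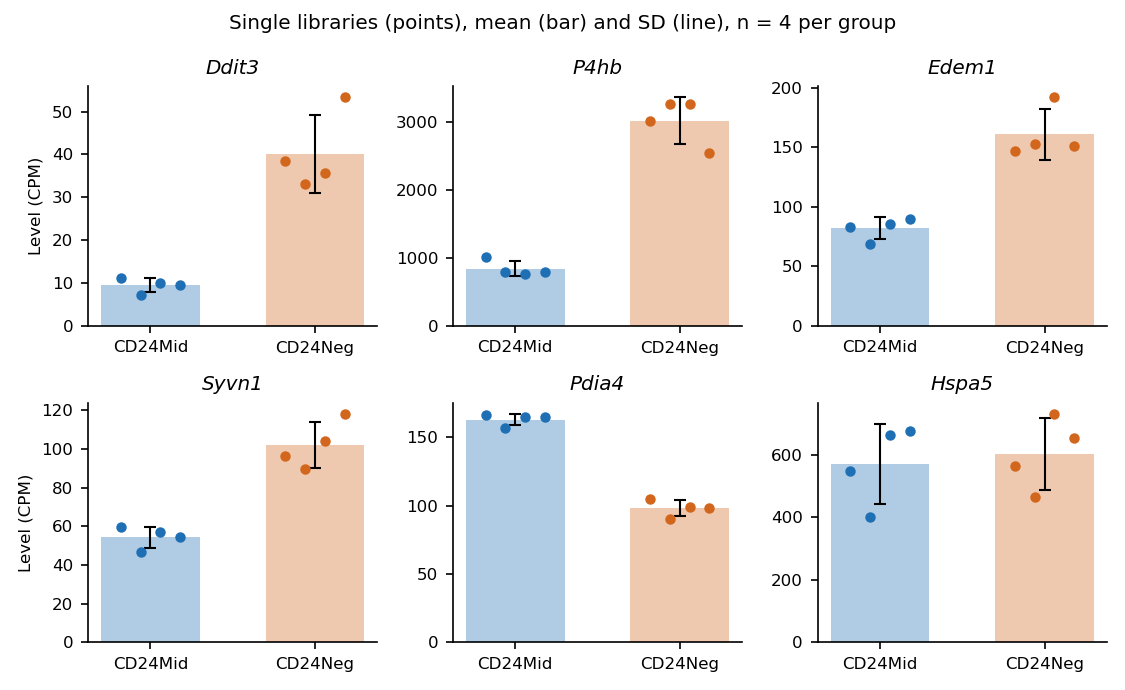
Level (CPM, linear axis from 0) of Ddit3, P4hb, Edem1, Syvn1, Pdia4 and Hspa5 in single libraries (points), with the mean of 4 libraries (bar) and the SD (line). Ddit3 (33.2 to 53.3 against 7.25 to 11.2 CPM), P4hb, Edem1 and Syvn1 are higher in every CD24Neg library, Pdia4 is higher in every CD24Mid library, and Hspa5 overlaps.

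Ratios between members within 1 library do not depend on library scaling. The ratio of Ddit3 to Hspa5 per kilobase was 0.064, 0.0566, 0.0478 and 0.0437 in CD24Mid and 0.213, 0.223, 0.153 and 0.255 in CD24Neg, so that Ddit3 gained on the chaperone by 1.98 (log2) in CD24Neg without overlap. Against Atf4, its upstream factor, the gain was 1.63 (log2 ratio -3.46 ± 0.12 SD in CD24Mid and -1.83 ± 0.27 SD in CD24Neg, n = 4 each), again without overlap. The other 4 ratios overlapped: Herpud1 to Hspa5 (log2 means -2.46 and -2.15), Ern2 to Ern1 (-0.82 and -0.60), Calr to Canx (0.98 and 1.19) and Sec61b to Sec61a1 (0.20 and 0.30). These ratios are given as values without a test.

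**Figure D4:**
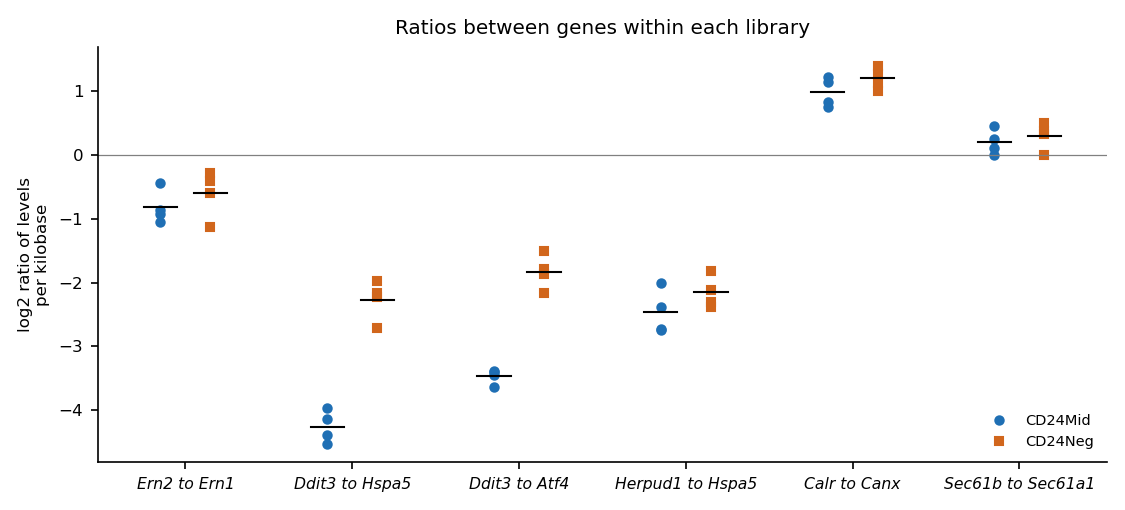
Log2 ratio of the levels per kilobase of 6 pairs of members (vertical axis) in each CD24Mid library (circles) and CD24Neg library (squares), with the group mean as a line. Both ratios with Ddit3 on top separate the groups, from -4.52 to -3.97 against -2.71 to -1.97 for Ddit3 to Hspa5, and the other 4 pairs overlap.

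The wider ER pathway was followed in 77 further genes, picked for known function. Of these 25 were higher in CD24Mid, 22 in CD24Neg and 30 were not called, against 35.5% and 34.3% of all genes called in those directions. The counts became 37 and 14 after upper-quartile scaling (all genes, 43.6% and 27.3%), and 67 and 8 when totals were left unscaled (69.8% and 12.9%). Neither direction of the whole set stood apart from the background with TMM. Of 14 genes for signal recognition, membrane docking and signal peptide removal, 6 were higher in CD24Mid and 1 (Tram1) in CD24Neg, with a median log2 fold change of 0.17. The signal peptidase subunit Spcs3 was 1.39-fold higher in CD24Mid (87.8 ± 9.44 against 63.1 ± 2.53 CPM, adjusted p = 0.0017 by edgeR), Sec61a2, a second channel gene, 1.41-fold (adjusted p = 0.014) and Srprb, a receptor subunit for the signal recognition particle, 1.26-fold (adjusted p = 0.0089). Tram1 was at -0.24 ± 0.09 SE with TMM and at 0.70 on unscaled totals. Its call was lost without any 1 library except CD24Mid replicate 7 (adjusted p 0.055 to 0.16 by edgeR).

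Of 12 genes for the attachment of N-glycans (median 0.26), 6 were higher in CD24Mid and 1 in CD24Neg (all genes, 35.5% and 34.3%). The latter was Ostc, at -0.29 with TMM and 0.65 on unscaled totals. The call of Ostc was lost without any 1 of CD24Neg replicates 2 and 4 and CD24Mid replicates 5 and 7 (adjusted p 0.074 to 0.1 by edgeR). Tusc3, an oxidoreductase subunit of the oligosaccharyltransferase, was 1.79-fold higher in CD24Mid (16.7 ± 1.55 against 9.32 ± 0.9 CPM, adjusted p = 0.00014 by edgeR), and the core subunits Rpn1 and Rpn2 were 1.43-fold and 1.32-fold higher (adjusted p 0.0043 and 0.013 by edgeR). Of 18 genes for oxidative folding and glycan quality control, 7 were higher in CD24Mid and 5 in CD24Neg (all genes, 35.5% and 34.3%). Prdx4, a peroxiredoxin that passes oxidising power from peroxide to the isomerases, was 3.85-fold higher in CD24Mid (53.3 ± 8.64 against 14 ± 3.11 CPM, adjusted p = 4e-06 by edgeR), and Mogs, the glucosidase that makes the first cut in new N-glycans, was 2.48-fold higher (112 ± 9.88 against 45 ± 1.18 CPM, adjusted p = 8e-07 by edgeR). Ero1lb, an oxidase that recharges disulfide isomerases, went the other way (8.41 ± 0.919 against 24.6 ± 6.97 CPM, 2.94-fold higher in CD24Neg, adjusted p = 3.1e-05 by edgeR). Further isomerase relatives in this list were named after their values were seen. Pdia5 (1.24, adjusted p = 9.5e-06 by edgeR), Dnajc10 (1.11, adjusted p = 2.8e-05) and Txndc5 (0.61, adjusted p = 0.01) were higher in CD24Mid. Erp44 was higher in CD24Neg with TMM (-0.34, adjusted p = 0.0088 by edgeR) and turned on unscaled totals (0.60). Tmx1 (0.25, adjusted p = 0.09 by edgeR) and Agr2 (0.37, adjusted p = 0.26) were not called.

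Of 12 cofactors of degradation, 5 were higher in CD24Neg and 1 in CD24Mid (all genes, 34.3% and 35.5%), or 4 and 4 with upper-quartile scaling. Their median log2 fold change was -0.11, against -0.58 for the 8 degradation members. The ligase gene March6, the lectin gene Os9, which presents glycoproteins to HRD1, and Vimp, which recruits the extracting ATPase, were 2.03-fold, 1.75-fold and 1.56-fold higher in CD24Neg (adjusted p = 0.00073, 0.00011 and 0.00075 by edgeR). On unscaled totals March6 was no longer called (-0.08), and Os9 and Vimp turned to 0.13 and 0.29. The gene higher in CD24Mid was Derl3, a relative of Derl1 and Derl2 that is also a plasma cell marker (2.33 ± 0.567 against 0.275 ± 0.173 CPM, with 211 reads in CD24Mid and 10 in CD24Neg, adjusted p = 6.5e-05 by edgeR). It was named because the count was small, as were Tram1 and Ostc.

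Of 16 genes listed for the PERK and ATF6 arms and their targets, 7 were higher in CD24Neg and 4 in CD24Mid (all genes, 34.3% and 35.5%). Wfs1, an ER membrane protein induced by stress, was 3.49-fold higher in CD24Neg (13 ± 2.37 against 45.2 ± 6.34 CPM, adjusted p = 2e-06 by edgeR). A further 3 known targets of the Atf4 and Ddit3 branch, named after their values were seen, were low in both groups and higher in CD24Neg: Trib3, a pseudokinase (0.385 ± 0.199 against 9.91 ± 1.65 CPM, from 34 and 380 reads, adjusted p = 4.4e-07 by edgeR), Chac1, a glutathione-degrading enzyme (0.418 ± 0.154 against 1.99 ± 0.81 CPM, adjusted p = 0.00055 by edgeR), and Nupr1, a stress-induced chromatin protein (2.06 ± 0.315 against 7.62 ± 3.14 CPM, adjusted p = 0.00054 by edgeR). Ppp1r15b (-0.51, adjusted p = 0.0015 by edgeR) and Cebpg (-0.41, adjusted p = 0.0098) were higher in CD24Neg with TMM, and turned on unscaled totals (0.44 and 0.54). Also in the list, Atf3 (-0.23, adjusted p = 0.42 by edgeR), Ppp1r15a (-0.16, adjusted p = 0.51) and Sesn2 (-0.02, adjusted p = 0.92) were not called. Nor were Cebpb (-0.27, adjusted p = 0.29 by edgeR) and Mbtps1 (-0.19, adjusted p = 0.094). Asns, the asparagine synthetase and a known Atf4 target, and Eif2s1, the initiation factor subunit that PERK phosphorylates, were higher in CD24Mid by 2.18-fold and 1.97-fold (adjusted p 2.7e-05 and 3.6e-06 by edgeR). Eif2ak4 (1.32, adjusted p = 6.6e-05 by edgeR) and Mbtps2 (0.68, adjusted p = 0.0054) were also higher in CD24Mid. Eif2ak4 encodes GCN2, a cytosolic kinase that belongs to neither arm, though it was counted in this list. PERK itself, Eif2ak3, did not overlap (23.8, 17.6, 25.2 and 26.8 against 28.9, 36.2, 36.8 and 33.8 CPM) and was 1.46-fold higher in CD24Neg (adjusted p = 0.0061 by edgeR) with TMM, and turned on unscaled totals (0.40).

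The CREB3 factors are held in the ER membrane and released by cleavage, as ATF6 is. Of 5, 3 were higher in CD24Neg and 1 in CD24Mid (all genes, 34.3% and 35.5%). Creb3l3, a factor of liver and gut that drives genes of lipid metabolism, was 17.7-fold higher in CD24Neg (34.4 ± 21.8 against 609 ± 83.8 CPM, adjusted p = 8.3e-06 by edgeR). Creb3l2 was 5.31-fold higher there (13.6 ± 2.49 against 72.1 ± 23.6 CPM, adjusted p = 4.8e-06 by edgeR) and Creb3 2.46-fold (29.4 ± 4.63 against 72.4 ± 5.16 CPM, adjusted p = 4.5e-06 by edgeR). Creb3l1, named because the count was small, was 1.76-fold higher in CD24Mid (39.9 ± 7.92 against 22.8 ± 8.28 CPM, adjusted p = 0.009 by edgeR). These 4 calls kept their direction in both other scalings.

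**Figure D5:**
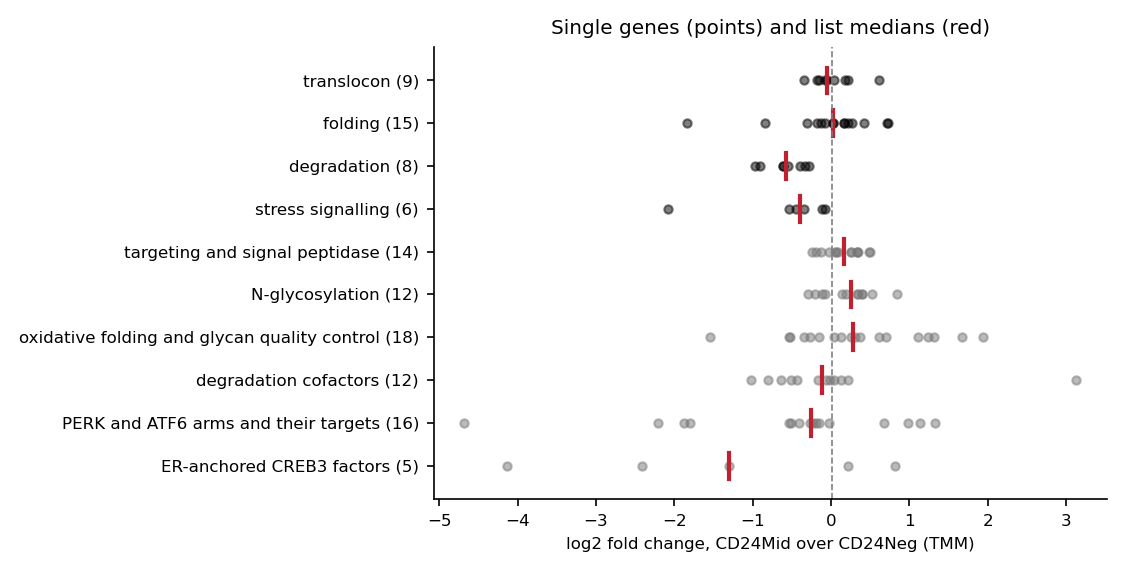
Log2 fold changes (horizontal axis, TMM) of single genes (points) for the 4 roles of the 38 members (black) and the 6 lists of further ER genes (grey), with the list median in red, the number of genes in brackets and the median of all genes as a dashed line. The medians run from -1.30 for the CREB3 factors and -0.58 for degradation to 0.28 for oxidative folding and glycan quality control.

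Plasma cell and enteroendocrine markers were higher in CD24Mid, as were Ssr1, Pdia4 and Pdia6, and the part of these cell types in that result was not tested. CD24Mid replicate 5 held 511 CPM of summed plasma cell markers, against 990 to 1124 CPM in the other 3 replicates. In that library Pdia4 stood at 165 CPM (157 to 166 over the 4 CD24Mid libraries), Ssr1 at 220 CPM (212 to 236) and Pdia6 at 203 CPM, its lowest in CD24Mid (203 to 228). Summed enteroendocrine markers were lowest in replicate 1 (271 CPM). With each of the 8 libraries left out in turn, the log2 fold changes were 0.73 to 0.80 for Pdia4, 0.67 to 0.81 for Pdia6 and 0.59 to 0.68 for Ssr1.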

How the data were processed

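Total RNA from sorted cells was made into TruSeq libraries, per the labels' protocols. The submitters' processing notes name Bowtie 0.12.8 and the mouse build NCBIM37. The tables carry the column names of MMSEQ. No source used here gives its version, the annotation or the strand setting. The authors deposited, per gene, a count of fragments unique to that gene (used as the main measurement), a log expression estimate read as a natural log because it gives back the unique counts (95th percentile of the ratio 1.31), and an effective length in bases. Names were found for 32897 of 37620 genes.

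Counts were tested with edgeR 4.0.16 (robust quasi-likelihood F test, TMM, filterByExpr, group as the only term, R 4.3.3), adjusted by Benjamini-Hochberg over all 12840 genes, and called under 0.05. The SE is the log2 fold change divided by the root of F. Alternatives used DESeq2 1.42.0, limma 3.58.1, other scalings and filters, and leaving out each library. The script was tested on simulated data. Within groups, every pair of libraries differed beyond sampling noise (lowest chi-square over its degrees of freedom 10.8). A gene with no read is limited to 0.121 to 0.38 CPM (3 counts, counting error only). All 38 members passed the filter. The members and lists were chosen with earlier results of these data known. Named genes are the 38 members and 3 of each further list. Those 3 are the called genes with the largest change and a mean of at least 10 CPM. Tram1, Ostc, Derl3 and Creb3l1 were added, each the only gene of its list called in its direction. The other genes named from the PERK and ATF6 list, and the isomerase relatives named from the oxidative folding list, fall outside this rule. Nothing in the labels says that the libraries came from separate animals, so p-values measure the spread between these libraries. A planned comparison of protein sequences was not made.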

Additional observations from a re-analysis of the deposited data

Results flagged for a closer look

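In 88 groups of 4 libraries (levels of the 38 genes and 6 ratios), 5 had a library far from the other 3 by Dixon's test at its 95% critical value. About 1 in 20 such groups is expected to by chance. Sec61a1 was high in CD24Neg replicate 2 (371 CPM, others 306 to 317), Ssr3 in CD24Neg replicate 4 (222 CPM, others 208 to 211), P4hb in CD24Mid replicate 1 (1012 CPM, others 765 to 797) and Edem1 in CD24Neg replicate 6 (192 CPM, others 147 to 153). Pdia4 was low in CD24Mid replicate 3 (157 CPM, others 165 to 166). Leaving out the library in question kept the calls of P4hb, Edem1 and Pdia4.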

How the results depend on the processing

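The counts of members higher in CD24Mid and in CD24Neg (3 and 13) were 10 and 8 after upper-quartile scaling, 32 and 2 on unscaled totals, 31 and 2 on the deposited log estimates, 18 and 4 on totals without mitochondrially encoded genes, 6 and 9 without a filter, and 5 and 11 with a filter of 1 CPM in 4 libraries. Size factors as in DESeq2, DESeq2 itself, limma voom, estimated counts and TMM without mitochondrially encoded genes gave 3 toward CD24Mid and 12 to 14 toward CD24Neg, and leaving out each library gave 3 to 4 and 11 to 12. The count of all genes called (8967) stayed between 8544 and 10618 over all alternatives. No paired analysis was possible because the groups share no replicate number and the labels tie no CD24Mid library to a CD24Neg library. Some log2 fold changes below 0 with TMM turned above 0 in other settings. Genes named in the text, except cell type markers, Ppp1r15b, Cebpb, Cebpg, Mbtps1, Erp44, Tmx1 and Agr2, did so as follows. With TMM after leaving out mitochondrially encoded genes they were Sesn2 0.01. With upper-quartile scaling they were Sec61a1 0.14, Sec61b 0.04, Sec61g 0.17, Sec63 0.07, Hspa5 0.15, Dnajb11 0.09, Calr 0.04, Ern1 0.14, Atf6 0.12, Ppp1r15a 0.06, Sesn2 0.20. On unscaled totals they were Sec61a1 0.86, Sec61b 0.76, Sec61g 0.90, Sec62 0.60, Sec63 0.79, Hspa5 0.87, Dnajb9 0.10, Dnajb11 0.82, Dnajc3 0.64, Calr 0.76, Sel1l 0.33, Syvn1 0.04, Herpud1 0.55, Edem2 0.66, Edem3 0.34, Derl1 0.39, Derl2 0.61, Ern1 0.86, Xbp1 0.40, Ern2 0.60, Atf6 0.84, Atf4 0.50, Os9 0.13, Vimp 0.29, Tram1 0.70, Ostc 0.65, Eif2ak3 0.40, Atf3 0.72, Ppp1r15a 0.79, Sesn2 0.92. On totals without mitochondrially encoded genes, a fit chosen once the data had been seen, they were Sec61a1 0.43, Sec61b 0.32, Sec61g 0.46, Sec62 0.17, Sec63 0.36, Hspa5 0.44, Dnajb11 0.38, Dnajc3 0.21, Calr 0.33, Herpud1 0.12, Edem2 0.22, Derl2 0.19, Ern1 0.43, Ern2 0.16, Atf6 0.41, Atf4 0.06, Tram1 0.27, Ostc 0.22, Atf3 0.27, Ppp1r15a 0.35, Sesn2 0.49. On the deposited log estimates, which are per mapped fragment and tested with limma, they were Sec61a1 0.83, Sec61b 0.78, Sec61g 0.90, Sec62 0.58, Sec63 0.40, Hspa5 0.84, Dnajb9 0.08, Dnajb11 0.79, Dnajc3 0.59, Calr 0.83, Sel1l 0.25, Herpud1 0.63, Edem2 0.61, Edem3 0.31, Derl1 0.37, Derl2 0.39, Ern1 0.85, Xbp1 0.40, Ern2 0.61, Atf6 0.79, Atf4 0.48, Os9 0.12, Vimp 0.27, Tram1 0.68, Ostc 0.64, Eif2ak3 0.34, Atf3 0.69, Ppp1r15a 0.62, Sesn2 0.89. Without a filter they were Sec61a1 0.02, Sec61g 0.06, Hspa5 0.03, Ern1 0.02, Sesn2 0.08. With a filter of 1 CPM they were Sec61g 0.01, Sesn2 0.03. With limma voom they were Sec61g 0.00. With the same exceptions, leaving out 1 library crossed 0 for genes that were not called: Sec61a1 (-0.15 to 0.02), Sec61g (-0.15 to 0.08), Ssr4 (-0.03 to 0.15), Hspa5 (-0.17 to 0.09), Canx (-0.03 to 0.14), Ern1 (-0.14 to 0.03), Atf6 (-0.23 to 0.01), Sesn2 (-0.13 to 0.09). The cause of these moves was not tested beyond the shared shift of all genes with scaling. Depth limits Sec61g and Ern2 most, with 157 and 692 reads in CD24Neg.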

Other observations

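Several members split the libraries in the same way in both groups, a pattern noticed in the data and not part of any label. In CD24Mid, replicates 1 and 3 were lower than replicates 5 and 7 for Edem3 (36.6 and 35.7 against 62 and 61.9 CPM), Dnajc3 (77.2 and 69.5 against 110 and 117 CPM), Hsp90b1 (533 and 462 against 739 and 760 CPM), Hspa5 (548 and 401 against 662 and 677 CPM) and Sec62 (41.3 and 48.4 against 63.5 and 60.2 CPM). They were higher for Ssr4 (110 and 107 against 77 and 87.3 CPM), Sec61b (58.8 and 54.9 against 43.6 and 43 CPM), Ssr2 (167 and 160 against 126 and 135 CPM) and Derl1 (119 and 108 against 98.3 and 97.5 CPM). In CD24Neg, replicates 2 and 4 were likewise lower than replicates 6 and 8 for Hsp90b1 (372 and 407 against 528 and 552 CPM), Hspa5 (565 and 465 against 731 and 653 CPM), Dnajc3 (90.3 and 111 against 139 and 123 CPM) and Sec62 (50.5 and 69.9 against 79.6 and 70.8 CPM), and higher for Ssr4 (108 and 91.7 against 82.9 and 88.3 CPM), Sec61b (73.1 and 56 against 43 and 55.2 CPM) and Derl1 (163 and 162 against 158 and 134 CPM). Edem3 (53.7 and 83.2 against 89.7 and 72.4 CPM) and Ssr2 (152 and 124 against 107 and 124 CPM) did not separate there. The effective lengths of Edem3, Dnajc3, Hsp90b1, Hspa5 and Sec62 were 5.49, 4.34, 2.25, 1.95 and 3.28 kilobases, and those of Ssr4, Sec61b, Ssr2 and Derl1 were 0.558, 0.352, 0.872 and 2.57 kilobases. The part of length in this split was not tested.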
